A study of Homo sapiens with 16 samples.

Results

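The histone genes of HepG2, a human cell line established from a liver cancer, are described here across 16 RNA-seq libraries. They were taken as every protein-coding row whose symbol begins with HIST1H, HIST2H, HIST3H, HIST4H, H2AF, H3F3 or H1F, which gave 85 genes of 20232 protein-coding rows and 56969 rows in all. Of these, 70 carry the HIST names of the clustered, replication-dependent genes and 15 carry the names of variant genes. The cells had received control siRNA (8 libraries) or siRNA against HCF-1 (8 libraries), a chromatin-bound transcriptional cofactor encoded by HCFC1. The labels name no change of genotype. All cells were reverse transfected with siPORT NeoFX, were transfected again after 2 days, and gave RNA 2 days after that. The submitters call the libraries of a group biological replicates, and the labels do not say whether these were separate cultures, so the tests measure the spread between these libraries. The question the design asks is which transcripts differ when HCF-1 is knocked down.

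Histones package DNA into nucleosomes, each with a core of H2A, H2B, H3 and H4, and linker histone H1 sits where DNA enters and leaves. The clustered genes are transcribed in S phase, and their mRNAs end not in a poly(A) tail but in a short stem-loop that the stem-loop binding protein SLBP recognises. Variant histones are mostly made throughout the cell cycle from ordinary polyadenylated mRNAs and replace the clustered forms at particular places. A few clustered genes also give polyadenylated transcripts that run past the stem-loop. The libraries were made with a stranded mRNA kit, a type that selects RNA by its poly(A) tail, so most transcripts of clustered genes are expected to be captured poorly.

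The 2 classes were set by gene name. The stem-loop, typical of clustered genes, was searched for after the stop codon in GENCODE 29 transcripts. The search used a fixed 16-base pattern that allowed other letters at some positions, so an element outside that pattern would be missed. It was found in 30 clustered genes and 1 variant gene. Another 39 clustered genes and 1 variant had under 100 bases annotated after the stop codon and could not be assessed. One clustered gene, HIST1H2BJ, and 13 variants had a longer 3′ sequence without a match. The 30 clustered genes carried 6 forms of the 16-base element, and 1 gene per form is printed below with the form of the variant H2AFX. Capitals mark the stem-loop, lower case the 5 bases on either side, and the letters are those of the transcript's DNA copy, 5′ to 3′.

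HIST1H2AC: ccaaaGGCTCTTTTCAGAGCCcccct
HIST1H2BC: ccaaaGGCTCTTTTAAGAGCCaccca
HIST1H2AG: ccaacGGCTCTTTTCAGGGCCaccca
HIST1H3E: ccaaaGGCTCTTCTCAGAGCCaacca
HIST1H4H: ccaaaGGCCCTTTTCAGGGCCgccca
HIST2H4A: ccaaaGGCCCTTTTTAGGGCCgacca
H2AFX: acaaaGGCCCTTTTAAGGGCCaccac

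The form of HIST1H2AC was the most common and was found in 15 clustered genes. The forms of HIST1H2BC and HIST1H4H were each found in 5 genes and that of HIST2H4A in 3. The forms of HIST1H2AG and HIST1H3E were found in 1 gene each. Every H4 gene in which an element was found had a form that begins GGCCC and ends GGGCC, with 5 genes like HIST1H4H and 3 like HIST2H4A. No clustered H2A, H2B or H3 gene with an element had that pair of ends, whereas H2AFX had it. In HIST1H2AC the element lay 43 bases after the stop codon, in the 3′ UTR, and the longest annotated transcript ran 1128 bases past it. In H2AFX it lay 49 bases after the stop codon, with 1044 bases annotated past it. HIST1H1C, the clustered gene with the highest count in these libraries, is annotated as coding sequence only in that release, so its 3′ end could not be read.

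Promoters from RefSeq (build GRCh38.p14, 250 bases before and 50 after the gene's start) were matched to 73 of the 85 genes. The promoters of 3 genes that rose or fell after HCF-1 siRNA are shown. They are a clustered H2A gene and a clustered H1 gene, which rose, and the H2A.Z gene, which fell. Capitals mark the octamer ATTTGCAT, bound by POU2F1, the TATA box TATAAA and the CCAAT box CCAAT, on either strand. None of these 3 motifs overlapped another where capitals are printed.

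HIST1H2AC, chr6:26123922-26124221, plus strand: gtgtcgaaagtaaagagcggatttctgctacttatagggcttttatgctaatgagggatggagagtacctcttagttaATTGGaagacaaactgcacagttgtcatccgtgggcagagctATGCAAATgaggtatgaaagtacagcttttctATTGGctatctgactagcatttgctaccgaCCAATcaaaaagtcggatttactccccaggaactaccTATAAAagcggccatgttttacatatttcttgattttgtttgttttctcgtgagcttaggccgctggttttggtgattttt
HIST1H1C, chr6:26056421-26056720, minus strand: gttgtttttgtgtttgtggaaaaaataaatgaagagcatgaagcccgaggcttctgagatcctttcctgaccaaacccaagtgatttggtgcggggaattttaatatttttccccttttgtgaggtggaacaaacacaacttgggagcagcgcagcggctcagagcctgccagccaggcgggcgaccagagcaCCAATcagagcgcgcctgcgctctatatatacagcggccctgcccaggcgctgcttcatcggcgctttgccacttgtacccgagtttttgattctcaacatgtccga
H2AFZ, chr4:99950226-99950525, minus strand: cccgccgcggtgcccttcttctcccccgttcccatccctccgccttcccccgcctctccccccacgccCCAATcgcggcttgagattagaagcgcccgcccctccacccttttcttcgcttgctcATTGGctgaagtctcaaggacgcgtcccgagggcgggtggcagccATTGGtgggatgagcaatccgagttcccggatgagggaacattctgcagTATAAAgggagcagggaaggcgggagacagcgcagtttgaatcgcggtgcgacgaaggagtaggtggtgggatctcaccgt

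The octamer was found in 11 of 16 clustered H2A promoters and 9 of 13 clustered H2B promoters. It was found in 1 of 12 H3 promoters and in none of the 13 H4 or 6 H1 promoters. The H3 window, that of HIST1H3D, is the same window as that of the H2A gene HIST1H2AD and is counted under both. The octamer was found in 1.77% of all 35116 promoters of the same length. TATAAA was found in 66.7% of the 60 clustered promoters and 11.5% of all, and CCAAT in 83.3% and 34.6%. Among the 13 variant promoters, 1 held the octamer, 4 held TATAAA and 10 held CCAAT. The E2F motif TTTCCCGC was found in 1 clustered promoter and no variant promoter, and ACTACAA, the start of the motif of ZNF143, likewise in 1 and none. Divergent neighbours can also share part of a window, so these promoters are not independent, and a match is a description of letters only.

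HCFC1 itself had 4851, 5548 and 6878 normalized counts as the lowest, median and highest control library and 3112, 3654 and 4171 after HCF-1 siRNA. The groups did not overlap, and the mean was 65.4% of control (two-sided exact permutation p = 1.55e-04, the smallest that 12870 splits can give). Depth was 21030830 to 32820459 recovered reads per control library and 25098840 to 43186890 per HCF-1 siRNA library. Of 8 hepatocyte markers, 6 rose and 1 fell, where 36.6% of all genes tested were called, 18.2% higher and 18.3% lower. SERPINA1 and HNF4A among them kept the call under 14 and 15 of 27 alternatives. Over the 8 markers summed counts were 619381 to 679683 per control library and 737244 to 894086 per HCF-1 siRNA library. Of 7 fibroblast markers THY1 was at 0 in every library, 2 were tested and COL1A1 fell, with sums of 440 to 1018 in control and 348 to 597 after HCF-1 siRNA. Of 7 blood markers CD3E and HBB were at 0, 4 were tested and LAPTM5 fell, with sums of 26902 to 31719 and 27930 to 34191, nearly all from LYZ. Of 5 endothelial markers KDR and TEK were at 0, 3 were tested and ESAM fell, with sums of 397 to 537 and 265 to 421. The part of other cell types in the histone values was not tested. In bulk RNA, fewer cells in S phase and less histone RNA per cell cannot be told apart.

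The classes lay far apart in level. In control libraries the 15 variant genes summed to 58004 ± 1306 normalized counts (mean and SD, n = 8), and the 70 clustered genes to 892 ± 46.7. Clustered genes thus held 1.51% ± 0.07 of histone counts in control libraries and 1.73% ± 0.10 in HCF-1 siRNA libraries (SD, n = 8). Among clustered genes, 13 were at 0 in all 16 libraries, 19 more had a mean below 1, 20 had a mean of 1 to 10, and 18 reached the mean of 10 required for testing. A gene at 0 in a library can still have had up to 3 reads' worth, which is 2.55 to 3.99 normalized counts in the control libraries, for counting error only. Picked out after their values were seen, the genes at 0 included the testis genes HIST1H2AA, HIST1H2BA and HIST3H3. They also included HIST1H2BE, HIST1H2BI, HIST1H3A, HIST1H3I, HIST1H4F and HIST1H4L, so the zeros were not confined to testis genes.

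**Figure D1:**
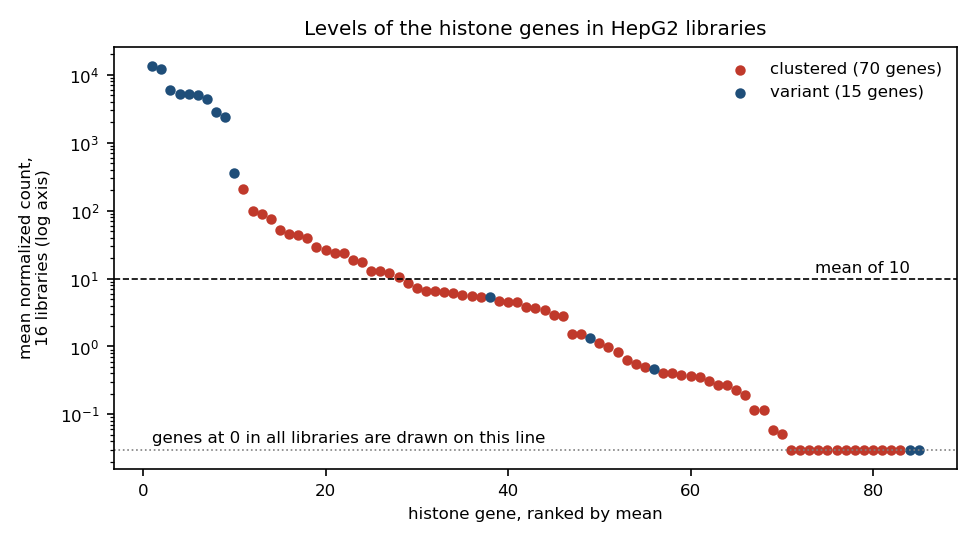
Mean normalized count over 16 libraries (log axis) for all 85 histone genes, ranked from the highest, with 70 clustered genes in red and 15 variant genes in blue. The 10 highest are variant genes, 18 clustered genes lie above the dashed line at a mean of 10, and 15 genes at 0 are drawn on the dotted line.

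Of the 15 variants, 10 were tested, with means from 355.5 (H2AFJ) to 13372 (H1F0). The other 5 are germ-cell genes or H3F3C: H3F3C had a mean of 5.34, the oocyte linker gene H1FOO 1.33 and H2AFB1 0.46, while H1FNT and H2AFB2 were at 0. Per kilobase of annotated exon, control levels were highest for H1F0, at 5452 ± 142 normalized counts per kilobase (SD, n = 8). H2AFX (3398 ± 147) and H1FX (3345 ± 125) came next and did not differ beyond their spread. They were followed by H2AFZ (2480 ± 101), H3F3B (1980 ± 72.4) and H2AFY2 (1211 ± 31.5), all on the same scale. H2AFV (964 ± 60.2) and H3F3A (909 ± 129) again lay within each other's spread. The clustered gene with the highest level per kilobase was HIST1H1C, at 277 ± 25.7, between H2AFY (373 ± 45.6) and H2AFJ (119 ± 10.2). HIST1H4K (183 ± 36.6) and HIST2H2AA4 (160 ± 20.4) came after it and lay within each other's spread, and the next was HIST1H2BK (118 ± 25.5), close to H2AFJ. This order rests on the union of annotated exons, which is 17730 bases over 20 transcripts for H2AFY and 642 bases of coding sequence only for HIST1H1C, so it can change with the annotation.

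Few clustered histone genes passed the test, and the variant genes that passed were mostly lower. Of 18 clustered genes tested, 2 rose, 0 fell and 16 did not pass the test (limma, Benjamini-Hochberg adjusted p under 0.05), where 36.6% of all 16081 genes tested were called. Of 10 variant genes, 1 rose, 4 fell and 5 did not pass. Among the 6353 genes tested with a mean of 10 to 250, the range that holds all the clustered genes tested, 25% were called, 14.2% higher and 10.7% lower. Among the 9728 genes with a mean of 250 or more, where the variants lie, 44.1% were called, 20.8% higher and 23.3% lower. Limma, and edgeR and DESeq2 on recovered reads, called no clustered gene lower. At an unadjusted p under 0.05 the numbers lower were 0, 1 and 0 in that order. The clustered share was below that of the 10 to 250 range, but most clustered genes tested had a mean under 50. With a filter at a mean of 50, 5 clustered genes were tested, and HIST1H1C and HIST1H2AC kept their calls. The variant share of 5 in 10 was close to that of genes with a mean of 250 or more. Median log2 fold changes were 0.05 for clustered, -0.08 for variant and 0.0064 for all genes tested. The median was 0.04 for all genes with a mean of 10 to 250, close to the clustered value, and -0.0044 for those of 250 or more. The clustered median ran from 0.0064 (without HCF-1 siRNA replicate 1) to 0.10 (without HCF-1 siRNA replicate 2) on leaving out single libraries and was -0.02 with no filter. The difference between the classes was not itself tested.

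**Figure D2:**
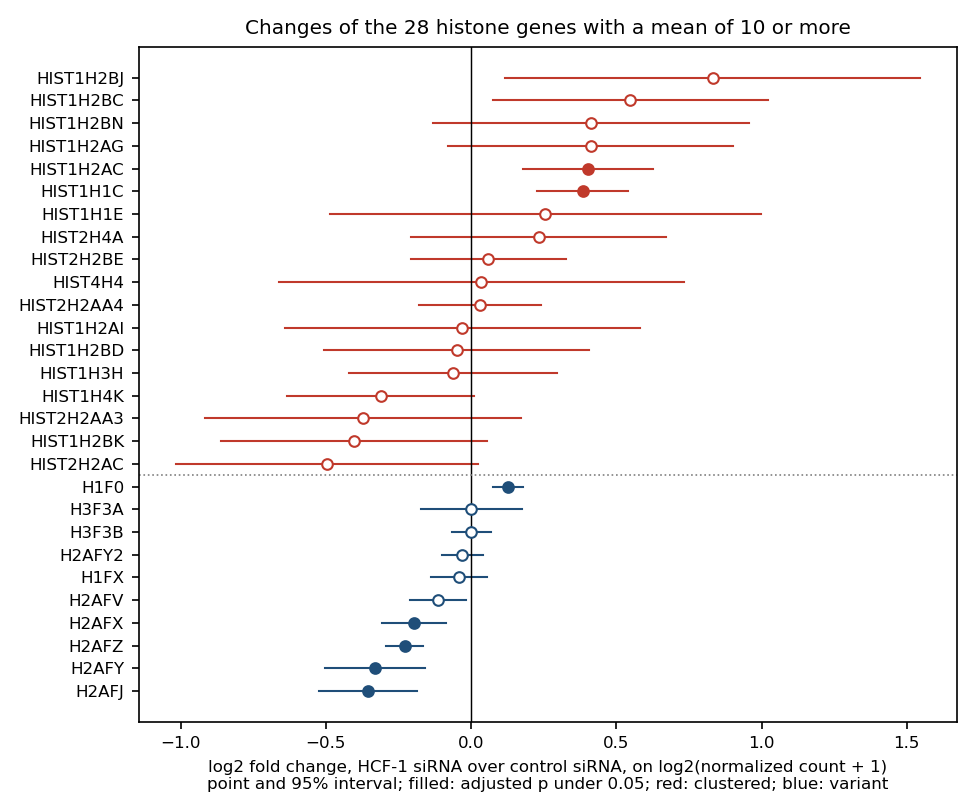
Log2 fold change of HCF-1 siRNA over control siRNA on the log2(normalized count + 1) scale, with its 95% interval, for the 28 histone genes tested (18 clustered in red, 10 variant in blue, 8 libraries a group). Filled points passed the test: HIST1H2AC and HIST1H1C are higher, H1F0 is higher by less, and H2AFX, H2AFZ, H2AFY and H2AFJ are lower.

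Of 6 clustered linker histone genes, 2 were tested and 1 rose, where 14.2% of genes with a mean of 10 to 250 were called higher. HIST1H1C (ENSG00000187837, chromosome 6), which encodes the linker histone H1.2, had 152, 174 and 197 normalized counts as the lowest, median and highest control library and 214, 228 and 259 after HCF-1 siRNA. All 8 HCF-1 siRNA libraries lay above every control library, one of 3 histone genes whose groups did not overlap, against 9.82% of all genes tested and 4.39% of those with a mean of 10 to 250. It rose to 131% of the control mean, a log2 fold change of 0.38 ± 0.07 (SE; limma adjusted p = 6.2e-04). HIST1H1E, which encodes H1.4, lay close to the limit for testing and had 9.33 ± 3.79 and 11.5 ± 6.07 normalized counts (mean and SD, n = 8). Its log2 difference was 0.26 ± 0.35, within its error. The remaining clustered linker genes HIST1H1A, HIST1H1B, HIST1H1D and HIST1H1T had means below 1.

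Of 17 clustered H2A genes, 6 were tested. HIST1H2AC (ENSG00000180573, chromosome 6), whose stem-loop and promoter are printed above, had 74.1, 85.0 and 93.3 normalized counts as the lowest, median and highest control library. After HCF-1 siRNA the values were 84.6, 114 and 133, and 7 of the 8 libraries lay above all controls while replicate 6 lay among them. It rose to 134% of the control mean (log2 fold change 0.40 ± 0.11 SE, limma adjusted p = 0.0064). HIST2H2AC, a canonical H2A gene on chromosome 1, had 12.8, 31.6 and 37.7 in control and 8.95, 19.9 and 28.4 after HCF-1 siRNA. All 8 HCF-1 siRNA libraries lay below the control median, but the ranges overlapped, and the log2 difference of -0.50 ± 0.25 did not pass (limma adjusted p = 0.127). Without control replicate 8, the lowest control library, it was -0.64 with a limma adjusted p of 0.0327.

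The other H2A genes did not pass the test. HIST2H2AA4 had a log2 difference of 0.03 ± 0.10 (SE), with an interval of -0.18 to 0.24. HIST1H2AG had 0.41 ± 0.23, HIST2H2AA3 -0.37 ± 0.26 and HIST1H2AI -0.03 ± 0.29. HIST2H2AA3 and HIST2H2AA4 are neighbouring copies, and all 50-base words of HIST2H2AA4 in GENCODE 29 occur in another gene, so how reads were divided between them is uncertain. The same holds for HIST1H2AI, with 62.3% of its words shared.

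Of 18 clustered H2B genes, 6 were tested and none was called by limma, although HIST1H2BJ and HIST1H2BC had an unadjusted p under 0.05. Among all genes tested with a mean of 10 to 250, 25% were called. HIST2H2BE, the H2B gene with the highest count and one known for a polyadenylated transcript, had 74.9 ± 15.5 and 76.9 ± 7.36 normalized counts (mean and SD, n = 8). Its log2 difference was 0.06 ± 0.13 (SE). HIST1H2BJ, which had no stem-loop match, had 4.65, 7.16 and 17.3 normalized counts as the lowest, median and highest control library and 5.43, 13.9 and 30.7 after HCF-1 siRNA. Of the HCF-1 siRNA libraries, 7 lay above the control median and 3 above all controls, while replicate 8 was among the lowest of all. Its log2 difference was the largest of the histone genes tested, 0.83 ± 0.34, and missed the limit (limma adjusted p = 0.0638).

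That miss was narrow. HIST1H2BJ passed under 6 of 26 alternatives, among them edgeR on recovered reads (adjusted p = 0.0384), the fit without HCF-1 siRNA replicate 8 (0.0179, log2 difference 1.02) and the fit without control replicate 7 (0.0327). HIST1H2BC, whose stem-loop is printed above, had 21.2 ± 7.50 and 31.0 ± 8.17 normalized counts, and its log2 difference of 0.55 ± 0.22 did not pass either (limma adjusted p = 0.0652). It passed under 4 of 26 alternatives, including the fits without control replicate 6 (limma adjusted p = 0.0252) and without HCF-1 siRNA replicate 7 (0.0243). HIST1H2BK pointed the other way, at 45.0 ± 9.71 and 34.7 ± 11.9 normalized counts, a log2 difference of -0.40 ± 0.22 (limma adjusted p = 0.158), and 74.1% of its words are shared. HIST1H2BD (-0.05 ± 0.22) and HIST1H2BN (0.41 ± 0.26) did not pass, and HIST1H2BN overlaps HIST1H2AK on the opposite strand and HIST1H2AL on the same strand.

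H3 and H4 genes were the least represented. Only HIST1H3H was tested of 14 clustered H3 genes, with a log2 difference of -0.06 ± 0.17 (SE). Of 15 clustered H4 genes, HIST1H4K, HIST2H4A and HIST4H4 were tested and none was called. The share called among all genes tested with a mean of 10 to 250 was 25%, so so few genes say little. HIST1H4K had 57.0 ± 11.4 and 45.9 ± 9.83 normalized counts (mean and SD, n = 8), a log2 difference of -0.31 ± 0.15 (limma adjusted p = 0.124). Its 50-base words all occur in another gene, as do 97.5% of those of HIST2H4A (0.23 ± 0.21). HIST4H4, on chromosome 12 beside H2AFJ, had 0.03 ± 0.33, with HCF-1 siRNA replicate 4 the highest at 45.9 normalized counts.

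Members below the limit gave no test. HIST1H2AM (8.47 ± 2.81 and 8.50 ± 4.18 normalized counts, control then HCF-1 siRNA, SD, n = 8) lay just under it, and HIST1H2AG, HIST1H2BJ, HIST2H2AA3 and HIST1H1E just above. HIST1H4D had reads in 5 of 8 control libraries, at most 2.04 normalized counts, and in none of the HCF-1 siRNA libraries. With no filter it was the only clustered gene called lower (limma adjusted p = 0.0478), at levels under the limit that a count of 0 allows. Scatter in the clustered genes was partly set by counting. Their median coefficient of variation within a group was 28.8%, where reads alone would give 18.3%, against 5.29% and 1.38% for the variants. Among clustered genes HIST1H2BN had the largest excess, with a variance 10.9 times the counting variance after HCF-1 siRNA. The excess was larger in the variants, where the median of this ratio was 12.5 against 2.15 for clustered genes.

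Both called clustered genes were on a list of 8 taken as known to give polyadenylated transcripts (HIST1H1C, HIST1H2AC, HIST1H2BC, HIST1H2BD, HIST1H2BJ, HIST1H2BK, HIST2H2BE and HIST1H4H), of which 7 were tested. Among the 62 other clustered genes, 11 were tested and none was called by limma. The 2 of 7 called is near the 25% of genes with a mean of 10 to 250, and the difference between the sets was not tested. The list came from general knowledge, with earlier results of these data known, and need not be complete. HIST1H2AG, HIST2H4A and HIST1H3H, tested and not on it, have transcripts annotated 1761, 1167 and 769 bases past the stem-loop. A split by annotation spread the calls otherwise. Called were 1 of 8 tested genes with 100 or more bases annotated past the stem-loop and 0 of 3 with fewer. In the remaining 7 tested genes no stem-loop was found, and 1 was called, HIST1H1C. Of these only HIST1H2BJ had 100 or more bases annotated after the stop codon. The others, HIST1H1C included, could not be assessed for a stem-loop. The 8 listed genes summed to 414 to 477 normalized counts in control libraries and to 473 to 596 after HCF-1 siRNA, where 7 of 8 libraries lay above all controls. Their mean sum was 121% of control, from 439 to 531, and most of the rise was that of HIST1H1C (178 to 232) and HIST1H2AC (84.1 to 112). The 62 others summed to 420 to 523 and to 424 to 475, a mean of 99.3% of control, with the groups overlapping throughout. No test was made on sums over chosen genes.

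**Figure D3:**
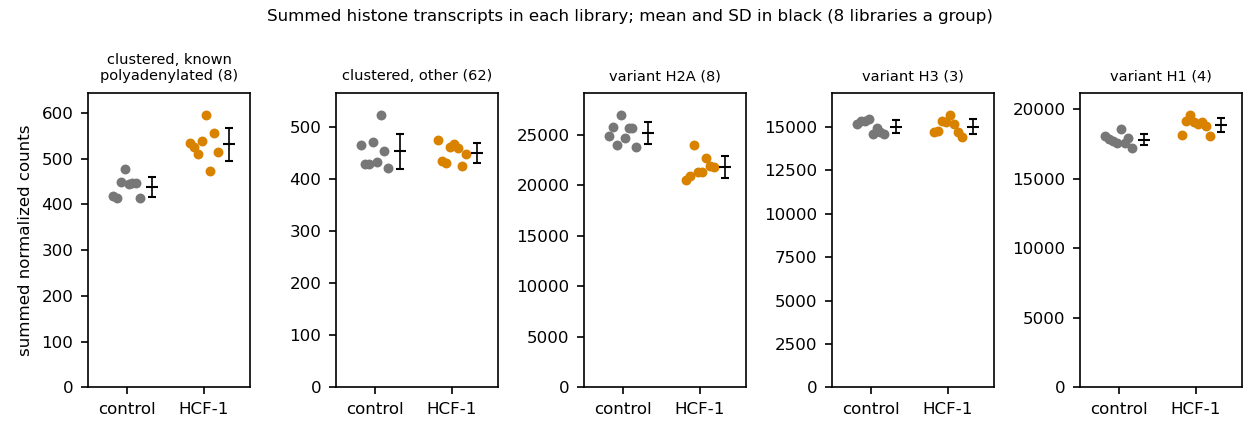
Summed normalized counts in each library for 5 sets of histone genes, with the number of genes in brackets, control siRNA in grey, HCF-1 siRNA in orange and mean and SD in black (n = 8 a group). The first set is higher in 7 of 8 HCF-1 siRNA libraries than in any control, variant H2A is lower in 7 of 8, variant H1 is higher in 6 of 8, and the other clustered genes and variant H3 overlap.

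Among RNA classes that mostly lack a poly(A) tail, some sums separated the groups and others overlapped. Rows of the snoRNA class summed to 226 to 292 normalized counts in control libraries and 383 to 519 after HCF-1 siRNA, without overlap. Rows of the rRNA class went the other way, from 347596 to 449491 and from 224055 to 327778. Rows of the snRNA class (125 to 189 and 144 to 206) and of the misc_RNA class (666 to 1205 and 881 to 1614) overlapped. A list of 29 genes for RNAs without a tail, such as RN7SL2 of the signal recognition particle, had a median sum of 308 in control libraries (195 to 1080) and 541 after HCF-1 siRNA (228 to 1163), again overlapping. Of these 29, 7 were at 0 in all libraries and 4 were tested. SCARNA12 rose, with the call under 24 of 26 alternatives, and 3 did not pass. Of all genes tested, 18.2% were called higher. Whether carry-over of such RNA had a part in the counts of clustered genes was not tested.

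All 6 tested variant genes of the H2A family had lower means after HCF-1 siRNA, and 4 of them fell. Among all genes tested with a mean of 250 or more, 23.3% were called lower. H2AFZ (ENSG00000164032, chromosome 4) encodes H2A.Z, which marks promoters and enhancers. It had 5389, 5681 and 6107 normalized counts as the lowest, median and highest control library and 4693, 4856 and 5123 after HCF-1 siRNA. Every HCF-1 siRNA library lay below every control library. H2AFZ fell to 85.3% of control, a log2 fold change of -0.23 ± 0.03 (SE; limma adjusted p = 2.1e-05). H2AFV, which encodes the second H2A.Z protein, had 4577 ± 286 and 4230 ± 272 normalized counts, and 7 of 8 HCF-1 siRNA libraries lay below the control median. Its log2 difference of -0.11 ± 0.05 missed the limit (limma adjusted p = 0.0637), and it passed under 7 of 27 alternatives, among them edgeR (0.0472), and the fits without control replicate 6 (0.0195) or without HCF-1 siRNA replicate 8 (0.0276).

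H2AFX (chromosome 11) encodes H2A.X, phosphorylated beside DNA breaks, and its transcript carries the stem-loop printed above as well as a longer polyadenylated form. It had 5117, 5591 and 5725 normalized counts as the lowest, median and highest control library and 4265, 4699 and 5464 after HCF-1 siRNA. In HCF-1 siRNA replicates 3 and 6 the values lay among the controls, and the other 6 lay below them. H2AFX fell to 87.5% of control (log2 fold change -0.20 ± 0.05 SE, limma adjusted p = 0.0070).

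H2AFY (chromosome 5), the gene of macroH2A1, whose large extra domain is linked to silent chromatin, had 5110, 6655 and 7704 normalized counts as the lowest, median and highest control library. After HCF-1 siRNA the values were 4350, 5178 and 6607. Replicate 3 was the lowest control library and also the highest HCF-1 siRNA library, and the groups overlapped. H2AFY fell to 79.5% of control (log2 fold change -0.33 ± 0.08 SE, limma adjusted p = 0.0044). The related macroH2A2 gene H2AFY2 had 2398 ± 62.4 and 2348 ± 94.6 normalized counts, a log2 difference of -0.03 ± 0.03 with an interval of -0.10 to 0.04.

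H2AFJ (chromosome 12) encodes H2A.J, a variant reported in senescent cells. It had 349, 398 and 455 normalized counts as the lowest, median and highest control library and 261, 311 and 377 after HCF-1 siRNA, and 7 of 8 HCF-1 siRNA libraries lay below all controls. It fell to 78.4% of control (log2 fold change -0.36 ± 0.08 SE, limma adjusted p = 0.0022). Its divergent neighbour HIST4H4 gave 0.03 ± 0.33, with an interval of -0.66 to 0.73 that also holds the value of H2AFJ. Summed over the 8 variant H2A genes, HCF-1 siRNA libraries had 86.7% of the control mean.

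**Figure D4:**
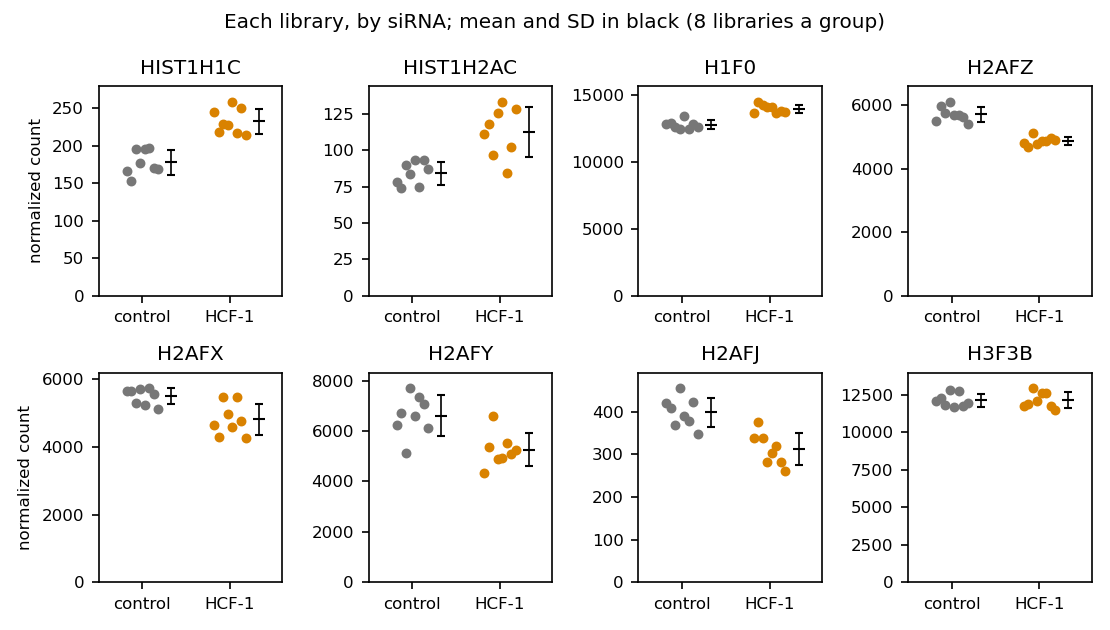
Normalized counts of 8 histone genes in each library, control siRNA in grey and HCF-1 siRNA in orange, with mean and SD in black (n = 8 a group) and axes from 0. HIST1H1C, H1F0 and H2AFZ separate fully, HIST1H2AC, H2AFX, H2AFY and H2AFJ overlap in part, and H3F3B overlaps throughout.

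H3.3, the variant deposited outside replication, showed no difference that passed the test. H3F3A and H3F3B encode the same protein from different genes. H3F3B had 12145 ± 444 and 12152 ± 522 normalized counts (mean and SD, n = 8), a log2 difference of 0.00056 ± 0.03 with an interval of -0.07 to 0.07. H3F3A had 2859 ± 406 and 2845 ± 261, a log2 difference of 0.0011 ± 0.08 with an interval of -0.17 to 0.18. The pseudogene H3F3AP4 carried more counts than H3F3A, 4517 in control and 4264 after HCF-1 siRNA, so how reads were divided between them is uncertain. Of 30 pseudogenes with histone names, 4 were tested and none was called by limma, where 36.6% of all genes tested were called. The lowest unadjusted limma p of the 4 was 0.129.

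Of 4 variant linker genes, 2 were tested and 1 rose, where 20.8% of genes with a mean of 250 or more were called higher. H1F0 encodes H1.0, which accumulates in cells that have left the cycle. It had 12431, 12752 and 13464 normalized counts as the lowest, median and highest control library and 13631, 13932 and 14511 after HCF-1 siRNA. Every HCF-1 siRNA library lay above every control, although control replicate 5, the highest, came close. H1F0 rose to 109% of control (log2 fold change 0.13 ± 0.02 SE, limma adjusted p = 5.1e-04). H1FX, which encodes H1.X, had 5041 ± 188 and 4911 ± 396 normalized counts and a log2 difference of -0.04 ± 0.05, and it overlaps the antisense gene H1FX-AS1. The 7 called histone genes kept direction and call under all 27 alternatives run for each.

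Of 23 tested genes that make and end histone mRNA, 5 rose, 5 fell and 13 did not pass. That count of 10 in 23 is near the background of 44.1% among genes whose mean is at least 250. SLBP, which binds the stem-loop, fell from 2378 ± 117 to 2130 ± 99.0 normalized counts (log2 fold change -0.16 ± 0.04). ERI1, the exonuclease that trims the stem-loop's end, fell (-0.35 ± 0.08), as did CSTF2T of the cleavage complex (-0.36 ± 0.06). CASP8AP2, or FLASH, which acts in histone mRNA cleavage, rose (0.37 ± 0.09), and POU2F1, which binds the octamer, rose from 902 ± 143 to 1318 ± 226 (0.54 ± 0.11). NPAT, the cyclin E-CDK2 target that drives clustered histone transcription, had -0.09 ± 0.10 and HINFP, which acts on H4 promoters, -0.14 ± 0.08, and neither passed. Named after their values were seen, SYMPK (0.32), COIL (0.22) and ZCCHC6 (0.28) rose and CPSF3 (-0.34) and LSM10 (-0.31) fell, all log2. ZCCHC6 had the call under only 16 of 27 alternatives (highest adjusted p 0.0804), and the other 4 under all 27.

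Of 31 histone chaperone genes, 7 rose, 5 fell and 19 did not pass. The 12 of 31 called lie between 36.6% of all genes tested and 44.1% of those with a mean of 250 or more. CHAF1B, of the complex that deposits H3 and H4 at replication, fell (-0.40 ± 0.10), as did IPO4, an importer of H3 and H4 (-0.33 ± 0.07). VPS72, which hands H2A.Z to its exchange complex, fell from 1103 ± 80.4 to 876 ± 102 normalized counts (-0.34 ± 0.07). HJURP, the chaperone of the centromeric H3, rose (0.33 ± 0.06). Of 38 S phase and replication genes, 17 fell, 2 rose and 19 missed the threshold, where 23.3% of genes with a mean of 250 or more were called lower and 20.8% higher. The median log2 difference of the 38 was -0.16. The 2 that rose, picked out after their values were seen, were CDC6 and CLSPN, with the call under 24 and 14 of 27 alternatives. GINS2 of the replicative helicase fell from 1894 ± 80.6 to 1306 ± 83.0 (-0.54 ± 0.04), and TK1, thymidine kinase, fell as well (-0.45 ± 0.06). PRIM2 (-0.43 ± 0.12) and GINS4 (-0.42 ± 0.10) fell too. Whether the S phase share of the cultures had a part in the histone values was not tested.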

How the data were processed

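The deposited values are a signal, gene counts that the authors divided by a size factor per library. Per the submitters' processing notes the tools were DESeq2 1.16.1, featureCounts 1.4.4, STAR 2.4.1d and cutadapt 1.4.2, and the build was hg19. Libraries came from a stranded mRNA kit, per the labels' protocols. The sources used here do not give the annotation release or the settings for strand and for reads that map to several places, and the last of these can set the counts of near-identical histone genes. Each value was a whole multiple of a library's step (100% of values, tolerance 0.001 read), so whole reads were recovered. All 16 columns were used. Within a group, no 2 libraries looked like copies of 1 library, and the closest pair differed by 11.5 times the sampling variance. Control and HCF-1 siRNA libraries were not compared with each other on this measure. Libraries of a group were not equally alike. HCF-1 siRNA replicates 3 and 6 differed by 16.9 times that variance, whereas replicate 3 differed by 25.4 to 38.7 times from the others of its group. Among controls the largest value was 35.0, for replicates 3 and 6. Whether a shared handling step had a part in this was not tested.

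Groups were compared over 8 and 8 libraries in limma 3.58.1 under R 4.3.3, using lmFit and a robust eBayes with a variance trend. It took log2 of the normalized count plus 1 for the 16081 genes whose mean reached 10. Benjamini-Hochberg adjustment ran over all of them, and calls had an adjusted p under 0.05. The pseudocount understates changes of low genes. The limma step was tested on simulated data. Histone sums and medians are descriptions. The histone genes, the other gene lists and the rules were chosen with earlier results of these data known. Genes named were HCFC1, every tested variant, called clustered genes, the 8 clustered genes of highest mean, up to 6 genes next to the limit of 10 by level, up to 4 called genes of largest change with a mean of 50 or more per other list (or the highest where none was called), and NPAT, SLBP, HINFP and CASP8AP2. The other tested or low histone genes were named to account for all members, after their values were seen.

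Stem-loops and shared 50-base words came from GENCODE 29 transcripts, matched for 84 of 85 genes, 36 of them by symbol because identifiers had changed. Exon lengths came from the same release, and promoters from RefSeq. Alternatives were pseudocounts of 0.5 and 10, no filter, a filter at 50, total-count and upper-quartile scaling, weights per library, edgeR 4.0.16 and DESeq2 1.42.0 on recovered reads (5853 and 6258 genes called), a replicate block, and leaving out single libraries. Reads thinned to the smallest library were added after seeing the data.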

Additional observations from a re-analysis of the deposited data

Results flagged for a closer look

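Of 120 groups of 8 values looked at, 6 held a library far from the other 7, and chance gives about 1 in 20. H1F0 was highest in control replicate 5, at 13464 normalized counts against 12431 to 12901 in the other controls. HIST1H2BK was lowest in control replicate 3, at 24.3 against 40.9 to 54.6. HIST1H4J, a low gene with shared sequence, was highest in control replicate 4, at 31.2 against 0 to 13.5. HJURP was lowest in control replicate 1, at 1136 against 1373 to 1575. RN7SL2 was highest in control replicate 1, at 569 against at most 244 in the others. The summed genes for RNAs without a poly(A) tail were highest in the same library, at 1080 against 195 to 544.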

How the results depend on the processing

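Of 741 values of tested histone genes under alternatives, 723 kept their side of the threshold. The 18 others were gains of a call in H2AFV (7), HIST1H2BJ (6), HIST1H2BC (4) and HIST2H2AC (1). No call changed direction, but some genes without a call changed sign. Examples are HIST1H2BD (log2 difference from -0.17 to 0.03) and HIST1H2AI (-0.27 to 0.11). Clustered genes called higher were 2, became 4 with array weights and were 2 to 3 on leaving out single libraries. They were 0 without the genes listed as known for polyadenylated transcripts, a list that held both called genes. Clustered genes called lower were 0, became 1 with no filter (HIST1H4D) and were 0 to 1 on leaving out single libraries, where HIST2H2AC was the 1 called, without control replicate 8. The log2 ratio of clustered totals was 0.14, and -0.0099 without the genes known for polyadenylated transcripts. Variant genes called lower were 4 to 5 on leaving out single libraries. The cause of these differences was not tested beyond the genes or libraries removed. No scaling moved the median of all genes by more than 0.03 on the log2 scale.

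Replicate numbers did not pair the libraries. Same-numbered libraries had correlations of deviations from -0.0738 to 0.0976, with 0 of 8 pairs over 0.1, and 1 control library correlated best with its own number. With the replicate number as a block, 2721 genes were called higher and 2763 lower, and 3 clustered genes were higher, HIST1H2BJ being added. Reads limit the clustered genes, whose counting error alone had a median of 18.3% per library.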
